A study of Mus musculus with 8 samples.

Results

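The Hox cluster genes measured in mouse lung after bleomycin injury are described here in libraries from wild-type mice and from mice lacking Slc15a3. A gene was taken when its symbol was Hoxa, Hoxb, Hoxc or Hoxd followed by a number and its reads summed to at least 10 over the 8 libraries. This gave 20 genes of the 18824 in the table, 7 of the Hoxa cluster, 7 of Hoxb, 2 of Hoxc and 4 of Hoxd. The 4 WT_BLM libraries came from wild-type lung, and the 4 KO_BLM libraries from lung of the Slc15a3-/- genotype. All mice were 8 weeks old when they received bleomycin (BLM), a DNA-breaking drug that causes lung fibrosis in rodents, at 2 mg/kg in 50 µl saline into the trachea, and were killed on day 21. Saline controls were not analysed here, and each difference is therefore one between genotypes after injury. The labels give no strain, sex or batch, and do not say how the knockout was made.

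SLC15A3 carries histidine and short peptides out of endosomes and lysosomes. Hox genes encode homeodomain transcription factors that give cells a position along the head-to-tail axis of the embryo. They lie in clusters, and their order on the chromosome follows the order in which they are used along the axis, with low numbers nearest the head and high numbers nearest the tail. Genes with the same number in different clusters are paralogs and often share functions. The proteins bind DNA together with cofactors of the TALE family (Pbx, Meis and Pknox). Adult tissues keep much of the embryonic Hox pattern, in connective tissue cells above all, and in lung mesenchyme the Hox5 paralogs act upstream of Wnt2, Wnt2b and Bmp4 during development.

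Hoxa2 to Hoxa7 span chr6:52162417-52218573 on the minus strand in GRCm38.p6. The Hoxb genes span chr11:96279401-96354020, the Hoxc genes chr15:103014008-103036856 and the Hoxd genes chr2:74697763-74748271, all on the plus strand. Among the genes called below, Hoxa5 (chr6:52201754-52204587) is neighboured by Hoxa4 and Hoxa6 and, like them, lies inside the annotated span of Hoxa3. Hoxb4 (chr11:96318267-96321638) lies inside the annotated span of Hoxb3, Hoxb5 lies at chr11:96303512-96306121, Hoxb7 at chr11:96285604-96290163 and Hoxb8 at chr11:96279401-96285325. Hoxd8 lies at chr2:74704615-74707933.

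Each library held 17627999 to 20180831 counted reads. Whether the 4 libraries of a group are 4 mice is not stated, and p-values here reflect only library-to-library spread, some of which may be technical. Slc15a3 was at 51.3 ± 4.11 CPM (reads per library size, TMM-adjusted; SD, n = 4) in WT_BLM and at 0.61 ± 0.303 CPM in KO_BLM (log2 fold change -6.36 with an SE of 0.23; adjusted p = 9.36e-07 in edgeR), with 5 to 18 reads left in each knockout library. The tissue label was checked with markers of type 1 and type 2 alveolar cells. All 12 were detected, and their summed level was 12400 to 17200 CPM in WT_BLM libraries and 26800 to 38900 CPM in KO_BLM libraries.

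In KO_BLM lungs the paralog 5 genes Hoxa5 and Hoxb5 and the paralog 4 gene Hoxb4 were higher than in WT_BLM lungs, and the higher-numbered genes Hoxb7, Hoxb8 and Hoxd8 were lower. Of 16 members that passed the filter on low counts, 3 were higher, 3 were lower and 10 did not pass the test, at an adjusted p of 0.05 in edgeR's quasi-likelihood test over 14746 genes. The called share was 37.5%, against 41.5% of all tested genes (20.7% higher and 20.8% lower), so the number of Hox genes called was near the background. The median log2 fold change of the 16 was -0.069, and that of all tested genes 0.003. CPM of the groups did not overlap for 4 of the 16, 2 above and 2 below, where 40.9% of tested genes did not overlap (20.3% above and 20.7% below). Fewer cells of a type and less RNA per cell cannot be told apart in these bulk samples.

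The genes that changed are shown with the 250 bases before their RefSeq transcription start, on GRCm38.p6, to show the sequence at the promoters of genes that moved in opposite directions. RefSeq windows were matched for 12 of the 20 members, and the 4 below are those of called genes. No GENCODE exon lies in any of the 4, and the Hoxb8 window falls inside the longest annotated span of its gene, before a start site within it. They lie at chr6:52204588-52204837 on the minus strand for Hoxa5, and on the plus strand at chr11:96318017-96318266 for Hoxb4, chr11:96281655-96281904 for Hoxb8 and chr2:74704365-74704614 for Hoxd8. Sequences run 5′ to 3′ along the gene's strand, and capitals mark a match to a searched motif.
Hoxa5: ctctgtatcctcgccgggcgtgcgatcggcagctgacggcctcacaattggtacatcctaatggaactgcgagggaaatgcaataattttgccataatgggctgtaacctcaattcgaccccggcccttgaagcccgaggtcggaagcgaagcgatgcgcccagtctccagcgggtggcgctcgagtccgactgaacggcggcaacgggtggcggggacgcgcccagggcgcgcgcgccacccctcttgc
Hoxb4: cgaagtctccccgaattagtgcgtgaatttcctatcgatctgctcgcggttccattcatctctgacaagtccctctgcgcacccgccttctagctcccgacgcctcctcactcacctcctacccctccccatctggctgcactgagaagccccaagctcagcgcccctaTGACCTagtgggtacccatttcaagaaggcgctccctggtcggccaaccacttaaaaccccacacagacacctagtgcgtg
Hoxb8: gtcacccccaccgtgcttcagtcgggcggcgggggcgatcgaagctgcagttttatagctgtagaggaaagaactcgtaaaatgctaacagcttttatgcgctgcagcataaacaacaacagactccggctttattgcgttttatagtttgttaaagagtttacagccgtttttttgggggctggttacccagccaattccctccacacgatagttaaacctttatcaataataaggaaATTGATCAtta
Hoxd8: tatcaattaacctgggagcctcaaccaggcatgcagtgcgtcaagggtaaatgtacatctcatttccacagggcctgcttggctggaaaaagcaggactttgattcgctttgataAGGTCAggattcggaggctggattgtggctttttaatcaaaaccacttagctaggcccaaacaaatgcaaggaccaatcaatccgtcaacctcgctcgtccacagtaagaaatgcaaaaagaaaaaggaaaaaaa

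Both strands of each window were searched for TGATNNAT, a Hox-Pbx motif, for TGACAG, a Meis motif, and for AGGTCA, the hexamer read by retinoid receptors. No matches overlapped each other in the member windows. The Hoxa5 window held no match. Those of Hoxb4 and Hoxd8 each held 1 match to AGGTCA or its reverse complement, and that of Hoxb8 held 1 match to the Hox-Pbx motif. Over the 12 member windows, 2 held the Hox-Pbx motif, 2 the Meis motif and 5 the retinoid hexamer, and among 32851 windows of the same length in the table the shares were 7.68%, 15.9% and 14.0%. Besides Hoxb4 and Hoxd8, which moved in opposite directions, the hexamer lay before Hoxc4, Hoxd3 and Hoxd4, which were not tested for a difference. No enrichment of a motif was tested, and a match is only a match of letters. Windows of the genes that rose had 63.6% (Hoxa5) and 58.0% (Hoxb4) G and C, and those of Hoxb8 and Hoxd8 both had 44.4%, against a median of 52.4% over all windows. CpG dinucleotides numbered 28 before Hoxa5, 14 before Hoxb4, 12 before Hoxb8 and 6 before Hoxd8, with a median of 6. Among tested members not called, G and C made up 46.4% before Hoxa2, 64.8% before Hoxa3, 54.8% before Hoxa7 and 65.2% before Hoxa6 and Hoxd9. No window was matched for the called genes Hoxb5 and Hoxb7, and no difference in base content was tested.

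Levels of different genes were compared in FPKM, which are per length. Hoxa5 had the highest level of the cluster genes in both groups, at 16.6 ± 2.72 FPKM in WT_BLM and 25.3 ± 2.09 FPKM in KO_BLM (SD, n = 4). In WT_BLM it was followed by Hoxb2 at 7.45 ± 2.13, Hoxa2 at 5.56 ± 0.383, Hoxb5 at 5.12 ± 0.430 and Hoxb4 at 4.34 ± 1.30 FPKM. The range of Hoxa5 lay above all others, and from Hoxb2 down to Hoxb4 each gene's range overlapped that of its neighbour. In KO_BLM the order of the next genes was Hoxb5 at 10.1 ± 2.89, Hoxb2 at 7.33 ± 0.674, Hoxb4 at 6.67 ± 0.466 and Hoxa2 at 4.84 ± 0.639 FPKM. Hoxb5 stood at rank 4 in WT_BLM and rank 2 in KO_BLM, but in KO_BLM the ranges of Hoxb5, Hoxb2 and Hoxb4 overlapped. Hoxc4, Hoxc5, Hoxd3 and Hoxd4 were the lowest, with means of 0.174 FPKM or less in either group.

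**Figure D1:**
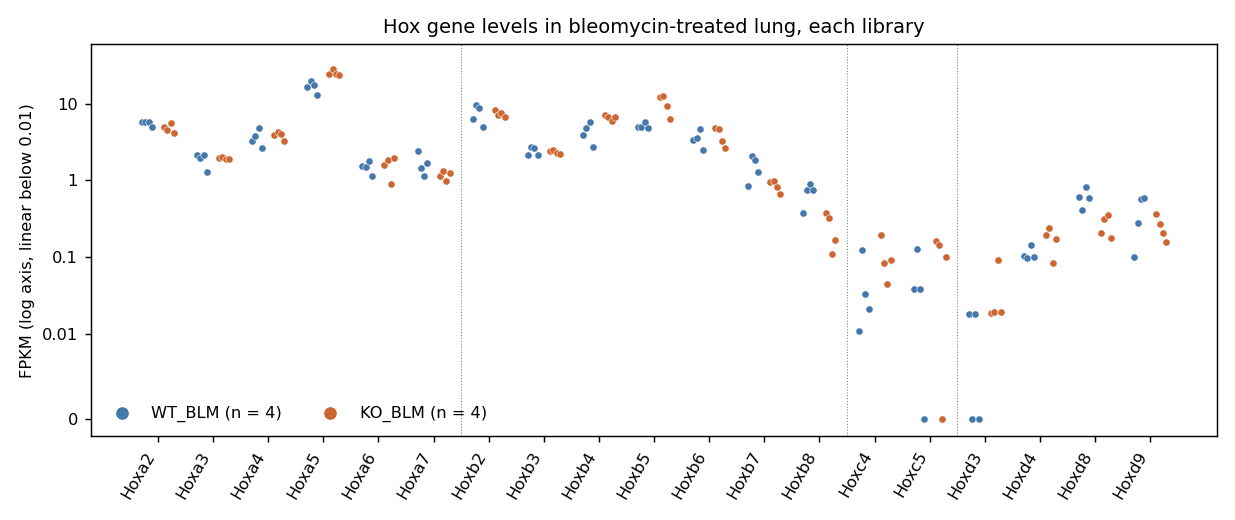
FPKM of the Hox members described in the text in each library, by group, on an axis that is logarithmic above 0.01 FPKM and linear below it. Hoxa5 is the highest gene in both groups, and the Hoxc genes, Hoxd3 and Hoxd4 are the lowest.

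Hoxa5, which is needed for lung development and for formation of the trachea, was at 31.9, 36.8, 32.8 and 26.1 CPM in WT_BLM replicates 1 to 4 and at 46.2, 52.3, 43.7 and 42.0 CPM in KO_BLM. Every KO_BLM library lay above every WT_BLM library. The mean was 1.44-fold higher in KO_BLM (log2 fold change 0.53 with an SE of 0.11; adjusted p = 0.00564 in edgeR). Hoxb5, a regulator of airway branching and of enteric nerve precursors, was at 9.84, 9.37, 11.04 and 9.75 CPM in WT_BLM and at 23.2, 23.4, 17.0 and 11.4 CPM in KO_BLM. The groups did not overlap, but KO_BLM replicate 4 was only just above the highest WT_BLM library. The mean rose 1.87-fold (log2 fold change 0.90 with an SE of 0.21; adjusted p = 0.0078 in edgeR).

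Hoxb4, known for expanding blood stem cells when overexpressed, was at 10.6, 12.5, 15.1 and 7.57 CPM in WT_BLM and at 18.2, 17.1, 14.9 and 16.3 CPM in KO_BLM. KO_BLM replicate 3 lay below WT_BLM replicate 3, so the groups overlapped. The mean was 1.45-fold higher (log2 fold change 0.54 with an SE of 0.19; adjusted p = 0.0417 in edgeR). The call was lost when WT_BLM replicate 1, 2 or 4 or KO_BLM replicate 1, 2 or 4 was left out, with adjusted p up to 0.0993.

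Hoxb7 was at 1.87, 4.51, 3.97 and 2.94 CPM in WT_BLM and at 2.04, 2.07, 1.72 and 1.36 CPM in KO_BLM. WT_BLM replicate 1 fell within the KO_BLM range. The mean was 1.85-fold lower in KO_BLM (log2 fold change -0.89 with an SE of 0.29; adjusted p = 0.0344 in edgeR), and the call was lost on leaving out WT_BLM replicate 2, WT_BLM replicate 3 or any KO_BLM library, with adjusted p up to 0.0891. It was also lost with library totals alone (0.0532), with limma-voom quality weights (0.0709), with log2(FPKM + 1) (0.0607) and with log2(FPKM + 0.1) (0.0638).

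Hoxb8, used to keep myeloid progenitors growing in culture, was at 1.16, 2.23, 2.68 and 2.34 CPM in WT_BLM and at 1.10, 0.949, 0.313 and 0.469 CPM in KO_BLM. The lowest WT_BLM library was just above the highest KO_BLM library. The mean was 2.97-fold lower in KO_BLM (log2 fold change -1.57 with an SE of 0.41; adjusted p = 0.0133 in edgeR). Hoxd8 was at 1.38, 0.893, 1.82 and 1.36 CPM in WT_BLM and at 0.441, 0.670, 0.730 and 0.365 CPM in KO_BLM, with no overlap. Its mean was 2.45-fold lower (log2 fold change -1.29 with an SE of 0.33; adjusted p = 0.0123 in edgeR). These were low levels: a count of 10 stands for 0.535 CPM in the median library, and Hoxb8 and Hoxd8 exceeded it in 4 WT_BLM and 2 KO_BLM libraries each. Only WT_BLM, the group where they are high, reached it in every library. A filter met through the group where a gene is high favours genes that differ, and these calls carry that condition.

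**Figure D2:**
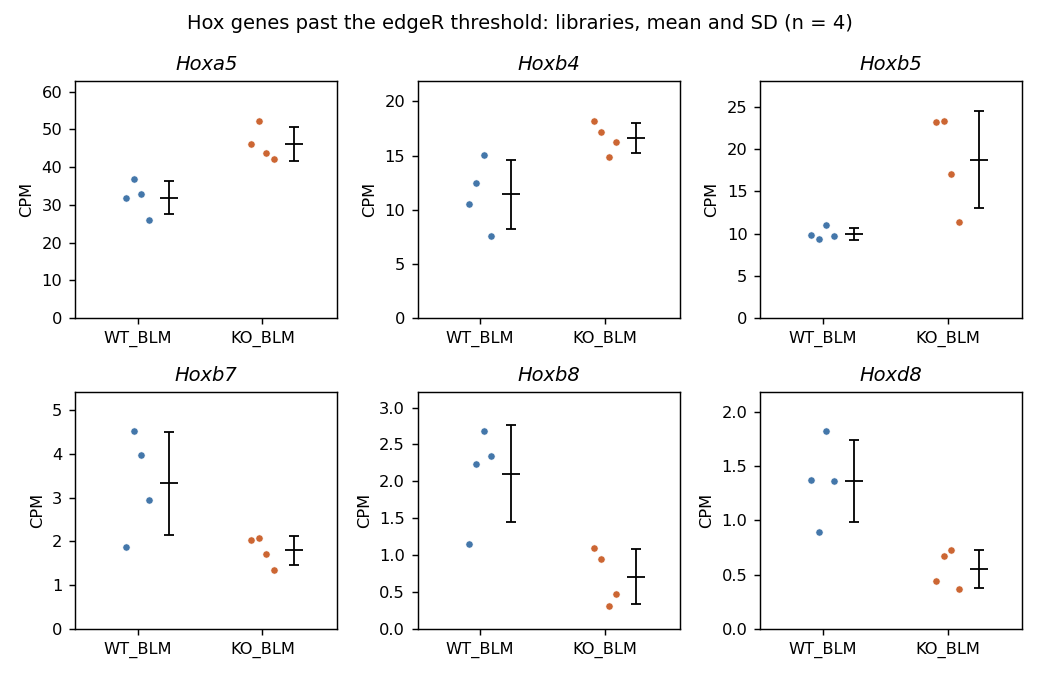
CPM of the 6 called Hox genes in each library of WT_BLM and KO_BLM, with points for libraries and the mean and SD for each group. Hoxa5 and Hoxb5 are higher in every KO_BLM library than in any WT_BLM library, Hoxb8 and Hoxd8 are lower, and Hoxb4 and Hoxb7 overlap.

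The other 10 tested members did not pass the test, and the groups overlapped for all 10. Hoxa2, which patterns the hindbrain and the hyoid arch, came nearest among the low numbers, at 10.6, 10.1, 10.5 and 9.48 CPM in WT_BLM and 8.87, 7.92, 9.65 and 6.94 CPM in KO_BLM. A single KO_BLM library, replicate 3, reached the WT_BLM range (log2 fold change -0.28 with an SE of 0.13; adjusted p = 0.113 in edgeR). Hoxa3, needed for thymus and parathyroid, had 14.7 to 23.4 CPM and 18.8 to 21.0 CPM (log2 fold change -0.04, SE 0.14). Its sign, like those of Hoxa4, Hoxa6, Hoxb2 and Hoxb6, depended on the scaling or on single libraries.

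Hoxb2, a gene of facial nerve development, had 9.20 to 16.6 CPM in WT_BLM and 10.7 to 14.2 CPM in KO_BLM (log2 fold change -0.10, SE 0.19). Hoxb3 had 17.3 to 21.2 CPM and 16.1 to 18.9 CPM, with a log2 fold change of -0.12 and the smallest SE among these genes, 0.11. The range of Hoxb2 and of Hoxa4 was wider in WT_BLM than in KO_BLM. Hoxa4 had 4.36 to 7.55 CPM and 4.75 to 6.36 CPM (log2 fold change 0.01, SE 0.19). Hoxb6, which lies between Hoxb5 (higher) and Hoxb7 (lower), had 4.30 to 7.66 CPM and 4.07 to 7.82 CPM (log2 fold change 0.05, SE 0.25), and the differences among these genes were not tested. Hoxa6 had 2.78 to 4.07 CPM and 1.98 to 4.13 CPM, with KO_BLM replicate 3 the lowest library (log2 fold change -0.02, SE 0.25).

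Hoxa7, switched on in leukaemias with KMT2A fusions, was at 4.95, 2.88, 2.25 and 3.49 CPM in WT_BLM and at 2.26, 2.57, 1.83 and 2.29 CPM in KO_BLM. WT_BLM replicate 3 lay within the KO_BLM range (log2 fold change -0.60 with an SE of 0.26; adjusted p = 0.0933 in edgeR), and the gene was called when that library was left out (0.0447). Hoxd9 was at 0.220, 0.595, 1.23 and 1.31 CPM in WT_BLM and at 0.771, 0.558, 0.417 and 0.313 CPM in KO_BLM. Its WT_BLM libraries were spread over both sides of the KO_BLM range (log2 fold change -0.70 with an SE of 0.52; adjusted p = 0.300 in edgeR). A missed threshold does not show that these genes are alike in the groups.

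By paralog number, none of 5 tested genes of numbers up to 3 was called, 3 of 4 of numbers 4 and 5 were higher, neither gene of number 6 was called, and 3 of 5 genes of numbers 7 to 9 were lower. All 5 of the last set had a log2 fold change below 0, and the calls of Hoxb8 and Hoxd8 carry the filter condition given above. Among all tested genes 20.7% were higher, 20.8% lower and 41.5% called in either direction. These ranges were drawn after the values were seen, so the counts describe the members and support nothing further. By cluster, 1 of 7 tested Hoxa genes was called (higher), 4 of 7 Hoxb genes (2 higher and 2 lower) and 1 of 2 Hoxd genes (lower), while no Hoxc gene was tested, against 41.5% called among all tested genes. Within Hoxb the calls split along the chromosome, with Hoxb4 and Hoxb5 higher and Hoxb7 and Hoxb8 lower, on either side of Hoxb6.

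**Figure D3:**
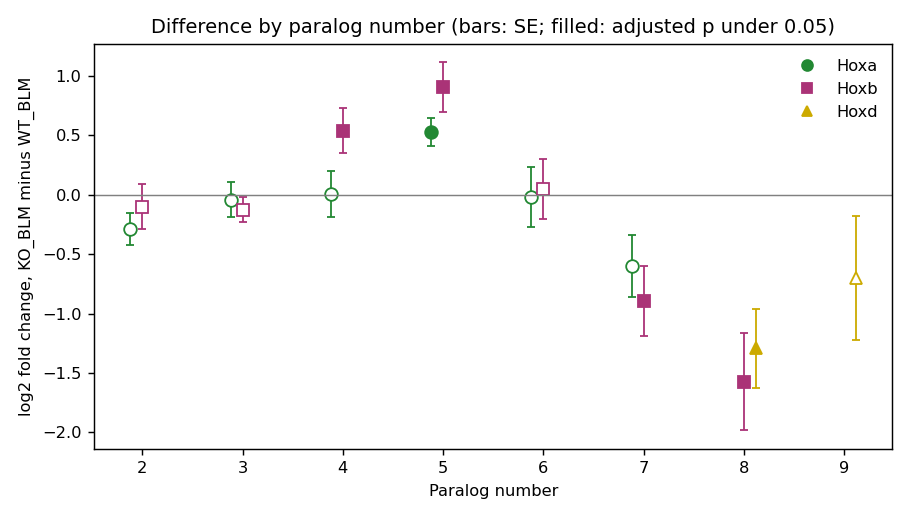
Log2 fold change of KO_BLM against WT_BLM with its SE for the tested members described in the text, by paralog number and cluster. Filled points have an adjusted p under 0.05. The called genes of numbers 4 and 5 lie above 0 and those of numbers 7 and 8 lie below.

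The sum of FPKM over the Hoxa members was 31.6 ± 4.21 in WT_BLM and 39.6 ± 2.62 in KO_BLM, and over the Hoxb members 25.1 ± 5.32 and 31.4 ± 4.99 (SD, n = 4). Hoxb sums overlapped, and the lowest KO_BLM sum of Hoxa, 37.1, lay above the highest WT_BLM sum, 34.9. Hoxa5, the only called gene of that cluster, made up 16.6 FPKM of the Hoxa mean in WT_BLM and 25.3 FPKM in KO_BLM. TMM-scaled CPM differ from FPKM both in the scaling between libraries and in not being per length. On TMM-scaled CPM the Hoxa sums of the groups overlapped, and their log2 ratio was 0.19 rather than 0.32. The Hoxd sum was 1.12 ± 0.375 against 0.725 ± 0.137, with overlap. The Hoxc sum was 0.0988 ± 0.104 against 0.207 ± 0.129, also with overlap, and its log2 ratio of 1.07 was 2.12 without WT_BLM replicate 2. The whole family summed to 57.9 ± 9.22 FPKM in WT_BLM and 72.0 ± 7.34 in KO_BLM, with overlap.

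Shares of that sum do not depend on the scaling between libraries. Paralogs 4 and 5 held 51.8%, 52.0%, 51.5% and 50.8% of the Hox FPKM in WT_BLM and 63.2%, 66.1%, 63.6% and 64.2% in KO_BLM. Paralogs up to 3 held 31.2% ± 0.750 and 24.4% ± 2.13, and paralogs 7 to 9 held 8.56% ± 1.35 and 3.88% ± 0.207. Neither pair of ranges overlapped. The summed level of paralogs up to 3 did overlap, at 18.1 ± 3.05 and 17.5 ± 1.41 FPKM, while that of paralogs 4 and 5, which is part of the denominator, was 29.9 ± 4.96 and 46.3 ± 5.19 FPKM. The sum of paralogs 7 to 9 was 4.88 ± 0.394 and 2.80 ± 0.405 FPKM, without overlap. Paralog 6 had 8.67% and 7.50% with overlap. Among single numbers, paralog 5 went from 37.6% ± 1.73 to 49.2% ± 1.79, paralog 7 from 5.59% ± 0.809 to 2.84% ± 0.182 and paralog 8 from 2.28% ± 0.569 to 0.697% ± 0.113, each without overlap. Paralog 4 took 13.9% ± 1.87 and 15.1% ± 0.838, with overlap. The shift of the merged range of 4 and 5 thus lay mostly in paralog 5, and the merged ranges were drawn after the values were seen. Paralog 2, with overlapping sums of 13.0 ± 2.44 and 12.2 ± 1.19 FPKM, took 22.4% ± 0.899 and 17.0% ± 1.82. Paralog 3, with overlapping sums of 4.31 ± 0.620 and 4.33 ± 0.177 FPKM, took 7.46% ± 0.207 and 6.04% ± 0.380. Hoxa5 alone held 28.6% ± 1.77 in WT_BLM and 35.2% ± 2.30 in KO_BLM, without overlap, and Hoxb5 8.96% ± 1.15 and 13.9% ± 2.75, with overlap. By cluster, Hoxa held 54.8% ± 3.04 and 55.2% ± 3.04 and Hoxb 43.0% ± 2.82 and 43.5% ± 2.88, both with overlap. Hoxd held 1.97% ± 0.725 in WT_BLM and 1.001% ± 0.111 in KO_BLM, and all KO_BLM libraries were below the lowest WT_BLM library.

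**Figure D4:**
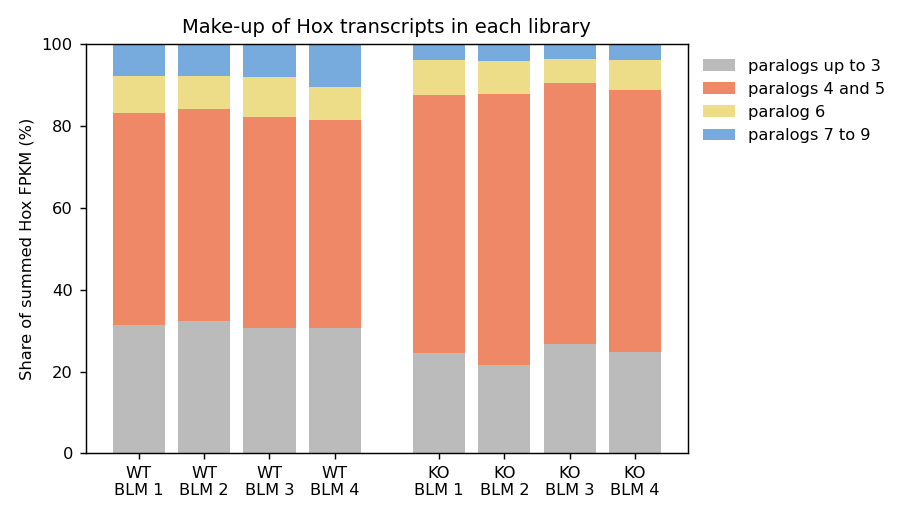
Percent of the summed Hox FPKM in each library, stacked by paralog range. Paralogs 4 and 5 take 50.8 to 52.0% in the WT_BLM libraries and 63.2 to 66.1% in the KO_BLM libraries, and paralogs 7 to 9 take less in KO_BLM.

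Ratios of raw counts within a library show the same members without any scaling between libraries. The ratio of Hoxb5 to Hoxb8 was 8.52, 4.20, 4.12 and 4.16 in WT_BLM and 21.1, 24.6, 54.3 and 24.2 in KO_BLM. Those of KO_BLM divide by only 20, 17, 6 and 9 Hoxb8 reads, and the 2 genes had been called in opposite directions. The ratio of Hoxb4 to Hoxb7 was 2.57 to 5.65 in WT_BLM libraries and 8.30 to 12.0 in KO_BLM libraries. Hoxa5 to Hoxa7 spanned 6.44 to 14.6 in WT_BLM libraries and 18.3 to 23.9 in KO_BLM libraries. Between chromosome neighbours, Hoxb5 to Hoxb6 was 1.44 to 2.27 in WT_BLM libraries and 2.79 to 3.40 in KO_BLM libraries, Hoxb4 to Hoxb3 was 0.424 to 0.722 and 0.880 to 1.01, and Hoxa5 to Hoxa4 was 4.35 to 6.29 and 7.29 to 8.86, none overlapping. These pairs were chosen after the values were seen and were not tested. Hoxb7 to Hoxb6, Hoxa5 to Hoxa6, Hoxb5 to Hoxb2 and Hoxd8 to Hoxd9 overlapped between the groups.

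Hoxc4, Hoxc5, Hoxd3 and Hoxd4 were members but stayed under the filter and were not tested. Hoxc4 had 18 counts summed over WT_BLM (95% Poisson interval 10.7 to 28.4) and 36 over KO_BLM (25.2 to 49.8), and Hoxd4 had 22 (13.8 to 33.3) and 32 (21.9 to 45.2). Hoxc5 had 11 and 20 counts and Hoxd3 2 and 8, with intervals that overlapped. The intervals cover counting error only. Hoxd3, at 10 counts, was the member nearest the threshold, and Hoxa9, at 9 counts, the gene nearest below it. A further 13 Hox symbols fell short: Hoxb9 and Hoxd10 had 7 counts each, Hoxc6 and Hoxc8 4 each, Hoxb13 and Hoxd13 3 each, Hoxa13 and Hoxb1 2 each, and Hoxa10, Hoxc10, Hoxc12 and Hoxd1 1 each, besides Hoxa9.

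The library kit keeps strand, but the strand setting of the counting is not given in the sources used here. In GENCODE vM21, antisense Hoxb3os overlaps 52.9% of Hoxb3 exon bases and 27.3% of those of Hoxb2, and Hoxaas3 overlaps 20.4% of those of Hoxa7, so reads of these genes may hold antisense transcripts. Of the called genes only Hoxb5 overlaps an antisense exon, that of Hoxb5os, over 3.59% of its exon bases. Hoxd3 and Hoxd4 share exon bases with each other on the same strand.

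Among the TALE cofactors, the DNA-binding partners of Hox proteins, 1 of 9 tested genes was higher and 2 were lower, where 20.7% of all tested genes were higher and 20.8% lower. Meis1 was at 22.4 ± 5.73 CPM in WT_BLM and 44.2 ± 5.27 CPM in KO_BLM (log2 fold change 0.98 with an SE of 0.17; adjusted p = 0.00191 in edgeR). Pbx4 (-1.02) and Meis3 (-0.47) were lower, and Pknox1 (0.26) did not pass the test. On leaving out WT_BLM replicate 2, WT_BLM replicate 3 or KO_BLM replicate 4, the higher count was 2.

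Polycomb complexes keep Hox genes silent, and Trithorax-group activators keep them on. Of 27 tested Polycomb genes 6 were higher and 4 lower, with a median log2 fold change of 0.01, near the 41.5% called among all tested genes. The 4 with the smallest p were all higher. Ezh1 (a histone H3 lysine methyltransferase) had a log2 fold change of 0.54, Phf1 one of 0.61, Cbx7 one of 0.63 and Phc3 one of 0.49. Among the lower genes was Rnf2, a ubiquitin ligase of the complexes (-0.58), which was named after its values were seen. The lower count was 2 on leaving out WT_BLM replicate 1, WT_BLM replicate 4 or KO_BLM replicate 2. Of 14 tested Trithorax-group and other activators 4 were higher (Psip1 and Rbbp5 among them, 0.38 and 0.27) and 2 lower (Wdr5 -0.26 and Dot1l -0.39), again near the 41.5% of all tested genes. The higher count was 1 on leaving out WT_BLM replicate 1 or one of KO_BLM replicates 1, 2 and 4, and 2 on leaving out WT_BLM replicate 3 or 4. The lower count was 1 on leaving out one of WT_BLM replicates 1, 2 and 4 or of KO_BLM replicates 2, 3 and 4.

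Retinoic acid activates Hox genes in order from the low-numbered end in the embryo. Of 14 tested retinoid pathway genes 3 were higher and 2 lower, near the 41.5% called among all tested genes. Aldh1a1, which makes retinoic acid, was higher (log2 fold change 1.03), as was the retinaldehyde reductase Dhrs3 (1.11), and Aldh1a3 (-1.90) and the retinoic acid carrier Crabp2 (-2.53) were lower. Without WT_BLM replicate 4 the lower count was 4.

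Of the 5 genes of the Wnt2 and Bmp4 axis that lies downstream of Hox5 in lung mesenchyme, 4 were higher, with a list median of 0.74, where 20.7% of all tested genes were higher and their median was 0.003. Wnt2 had 7.10 ± 0.934 CPM in WT_BLM and 14.5 ± 1.07 in KO_BLM (log2 fold change 1.03 with an SE of 0.13; adjusted p = 0.000382 in edgeR). Axin2, a Wnt target, had a log2 fold change of 0.83, Wnt2b one of 0.74 and Bmp4 one of 0.48. The count was 2 without WT_BLM replicate 1, and 3 without WT_BLM replicate 3, WT_BLM replicate 4 or any KO_BLM library. This list was written with earlier results of these data known. Among 9 tested transcription factors of lung mesenchyme, 2 were higher and 2 lower, near the 41.5% called among all tested genes. Their median log2 fold change was -0.049. Tcf21 (1.69) and Tbx3 (0.71) were higher and Gli3 (-1.33) and Tbx5 (-0.62) lower.

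Of 13 tested genes flanking the clusters, 3 were higher and 4 lower, where 20.7% of all tested genes were higher and 20.8% lower. Ttll6 (1.63) was higher, and Skap2 (-0.33), Snx11 (-0.36) and Snx10 (-0.54) lower. The higher count was 1 on leaving out WT_BLM replicate 1, WT_BLM replicate 4 or KO_BLM replicate 2.

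Markers of most cell types of the lung also moved with genotype, where 20.7% of all tested genes were higher and 20.8% lower. Of 13 fibroblast markers 4 were higher and 7 lower, and their summed level was 8480 to 9530 CPM in WT_BLM and 3300 to 3580 CPM in KO_BLM. Col1a1, Col1a2 and Col3a1, which encode fibrillar collagens, made up most of that sum, at 7100 to 8070 CPM in WT_BLM and 1950 to 2420 CPM in KO_BLM. The other 10 fibroblast markers, a split made after the values were seen, summed to 1380 to 1510 CPM and 1150 to 1350 CPM, with 4 higher and 4 lower. All 6 activated fibroblast markers were lower (511 to 650 against 338 to 396 CPM), as were 6 of 8 of smooth muscle and pericytes (1230 to 1360 against 533 to 725 CPM).

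Of 12 endothelial markers 6 were higher and 1 lower, with sums of 3990 to 4680 CPM in WT_BLM and 4070 to 6080 CPM in KO_BLM. Of the 12 alveolar markers 8 were higher, and all 6 airway markers were higher (3040 to 9320 against 11700 to 23300 CPM). Macrophage markers were lower for 7 of 8 (1840 to 3750 against 931 to 1180 CPM). Markers were higher for 8 of 9 of T and natural killer cells (19.8 to 50.4 against 98.6 to 187 CPM) and for 5 of 5 of B cells (27.6 to 90.2 against 175 to 272 CPM). No list had a marker at 0 in all libraries.

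In KO_BLM Hoxb5 was at 23.2, 23.4, 17.0 and 11.4 CPM in replicates 1 to 4, and Hoxb6 at 7.82, 7.42, 5.01 and 4.07 CPM. Over the same libraries the endothelial sum was 6080, 5280, 4520 and 4070 CPM, the alveolar sum 38900, 36700, 30000 and 26800 CPM, and the TALE cofactor sum 417, 404, 360 and 351 CPM. The sum of the lung mesenchyme factors was 1230, 1100, 904 and 745 CPM. All of these were higher in replicates 1 and 2 than in replicates 3 and 4. So were Hoxa3, Hoxa4, Hoxa5, Hoxb3, Hoxb4, Hoxb7, Hoxb8 and Hoxd9, but not Hoxa2, Hoxa6, Hoxa7, Hoxb2 or Hoxd8. The Polycomb sum (1550, 1600, 1460 and 1450 CPM) and the Trithorax-group sum (1060, 1040, 866 and 949 CPM) had this split too. It was also seen in the smooth muscle and pericyte sum (725, 707, 533 and 673 CPM), and so was not particular to Hoxb5 and Hoxb6. These sums were picked with the values known. The airway sum had the same split (23300, 23000, 11700 and 13800 CPM). The fibroblast sum (3300, 3410, 3330 and 3580 CPM) and the macrophage sum (1000, 931, 1180 and 1090 CPM) did not. In WT_BLM the endothelial sum was 4680, 4450, 3990 and 3990 CPM, while Hoxb5 (9.84, 9.37, 11.04 and 9.75 CPM) and Hoxb6 (5.66, 5.85, 7.66 and 4.30 CPM) were highest in replicate 3. The TALE cofactor sum was also highest there, at 358 CPM, but the alveolar and lung mesenchyme factor sums were not. The part that cell numbers play in the Hox values was not tested.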

How the data were processed

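Lung RNA was sequenced in 4 WT_BLM and 4 KO_BLM libraries made with a stranded TruSeq mRNA kit, per the labels' protocols. The authors deposited raw read counts per gene symbol, and FPKM values that equal count over library total and a single length per gene for 100% of genes (relative tolerance 1e-06). Trimmomatic, HTSeq, Cufflinks, DESeq and the mm10 build are named, without role, in the submitters' processing notes. The sources used here do not give the aligner or the strand setting.

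Counts were fitted in edgeR 4.0.16 under R 4.3.3, with TMM scaling, a filterByExpr minimum count of 10 and total of 15, robust quasi-likelihood F tests, and Benjamini-Hochberg adjustment over 14746 genes. Each SE was derived from the fold change and its F value. The biological coefficient of variation was 16.6%. FPKM served for levels between genes. Chi-square tests of the counts found no pair of libraries within sampling noise (7.24 to 55.7 per degree of freedom). The Hox members and the gene lists were chosen with earlier results of these data known. All members but 1, which is not reported here and counts only in totals, are named, with up to 4 genes of smallest p from each list. On simulated data of 14686 genes, 43.8% of genes changed 1.5-fold were recovered, 94.2% at 2-fold and 100% at 4-fold, and 4.79% of calls were false. The simulation gave every gene the same coefficient of variation. It changed only 64 to 69 genes at each fold, far fewer than were called in the data. Recovery was not measured for low genes with a wider spread, such as Hoxd9 (SE 0.52). Tried as alternatives were RLE scaling, unscaled library totals, dropping or tightening the low-count filter, DESeq2 1.42.0, limma 3.58.1 with voom quality weights or on log2(FPKM + 1) or log2(FPKM + 0.1), a replicate block, a fit that was not robust, and leaving out each library.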

Additional observations from a re-analysis of the deposited data

How the results depend on the processing

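The 6 called Hox genes kept their direction in each of the 18 alternatives that tested them. Hoxa5, Hoxb5, Hoxb8 and Hoxd8 (4 of 6) also kept their calls; the strict filter did not test Hoxd8 or Hoxd9. Hoxb4 and Hoxb7 lost theirs as given above. The replicate numbers did not pair the libraries (correlations of same-numbered deviations 0.089, -0.005, 0 and -0.092), and the replicate block called 3 Hox genes higher and 2 lower, with Hoxb7 lost (adjusted p 0.0611), and 2878 genes higher and 2824 lower in all. Library totals alone moved the median of all genes to 0.0883 and the share of calls that were higher from 50.0% to 62.7% (3789 higher, 2253 lower); log2(FPKM + 1) gave 63.0% and log2(FPKM + 0.1) 62.8%. Values under library totals alone, log2(FPKM + 1) and log2(FPKM + 0.1) changed sign for uncalled Hoxa3 (0.0423, 0.0388, 0.0649) and Hoxa6 (0.0675, 0.0274, 0.0278), and under the latter pair for Hoxb2 (0.0134, 0.02). Leaving out a library gave -0.1711 to 0.0282 for Hoxa3, -0.1076 to 0.1619 for Hoxa4, -0.1173 to 0.1782 for Hoxa6, -0.2387 to 0.0288 for Hoxb2 and -0.0962 to 0.2008 for Hoxb6. Hoxa2 gained a call with limma-voom (adjusted p 0.0288) and Hoxa7 without WT_BLM replicate 3 (0.0447). Summed levels moved by less than the spread between replicates in all 117 alternative values. Higher TALE cofactors numbered 4 with library totals alone, 2 with the replicate block, 4 with limma-voom, 3 with log2(FPKM + 1), 3 with log2(FPKM + 0.1) and 1 to 2 with a library left out. Lower Polycomb genes numbered 2 with library totals alone and with each FPKM fit, and 2 to 4 with a library left out. Lower Trithorax-group genes numbered 1 with library totals alone, the replicate block and each FPKM fit, and 1 to 2 with a library left out, and higher ones 1 to 4. Retinoid genes numbered 5 higher and 4 lower with limma-voom, and 2 to 4 lower with a library left out. Higher Wnt2 and Bmp4 axis genes numbered 2 to 4 with a library left out. Higher flanking genes numbered 5 with library totals alone, limma-voom and log2(FPKM + 0.1), and 1 to 4 with a library left out. The cause of these shifts was not tested. Depth limits the Hoxc genes, Hoxd3 and Hoxd4, which had too few counts for a test.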
